A study of Mus musculus with 7 samples.

Results

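The genes described here are 10 genes of antigen presentation in mouse liver, chosen by name: 6 genes of the major histocompatibility complex (MHC) class II pathway (H2-Aa, H2-Ab1, H2-Eb1, Cd74, H2-DMa and H2-DMb1), their transactivator Ciita, the immunoproteasome subunits Psmb8 and Psmb9, and the peptide transporter subunit Tap1. They are 10 of 32451 genes on the array, and 11 probes measured them, 2 for H2-Ab1 and 1 for each of the others. Male C57/BJ mice were put on a high-fat diet (HFD, D12331) or on control chow (Provimi Kliba) at 6 weeks of age, and livers were taken 20 weeks later, at 26 weeks. There were 4 chow and 3 HFD samples of total RNA, each on its own 1-colour Agilent array, and the labels name no genotype or treatment beyond the diet. They do not say which animal a sample came from or whether animals were pooled, so the p-values measure only the spread between these samples.

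MHC class II molecules show peptides from engulfed material to helper T cells and are made mainly by dendritic cells, B cells and macrophages, which in liver include the resident Kupffer cells. An alpha and a beta chain assemble in the endoplasmic reticulum with the invariant chain, encoded by Cd74, and the DM proteins later exchange a remnant of that chain for peptide. The immunoproteasome is a form of the proteasome, induced by interferon gamma, in which Psmb8 and Psmb9 replace constitutive catalytic subunits. Its peptides enter the endoplasmic reticulum through the TAP transporter for loading on class I molecules.

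The diet comparison rests on the authors' deposited table of log2 values, which lists 1615 probes of 1488 genes. Over these probes the HFD scanner files and the table's HFD columns had a Pearson r of at least 0.9999, while the scanner files labelled chow had an r of only 0.580 to 0.589 with theirs. Correlations across probes describe these files, since probes are not independent replicates. Of 4 hepatocyte markers, albumin (Alb), apolipoprotein A-I (Apoa1) and Cps1 were well above background in 0 of the 4 files labelled chow, transthyretin (Ttr) was in 3 of them, and all 4 markers were in all 3 HFD files. Values of those 4 files are therefore not used for the members, and members outside the table have levels in HFD only. The mean negative control signal was 46.9 on the array of HFD replicate 1 and lay between 29.9 and 31.4 on the other arrays. All HFD arrays share a scan day and that of the chow columns is not known, so scan day and diet cannot be told apart.

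Of the 10 members, 5 were listed in the table, all higher in HFD: the class II genes H2-Eb1, H2-Ab1, Cd74 and H2-DMb1, and the immunoproteasome gene Psmb9. Across the array, 2.47% of genes were listed as higher. H2-Eb1 (3.55-fold) and Psmb9 (1.89-fold) rose at an adjusted p under 0.05 in limma (linear models with moderated variances), where Benjamini-Hochberg adjustment covered every gene of the array. The background share called higher was 1.05% of all genes and 23% of the genes in the table. H2-Ab1, Cd74 and H2-DMb1 did not pass, with adjusted p-values in limma between 0.0537 and 0.0632. For 100% of the table's genes the chow and HFD values did not overlap, which shows that the table was chosen on the diet contrast, so the separation of each listed member below was fixed by that choice. The median log2 fold change of the 5 listed members was 1.54, beside 0.44 over all 1488 genes of the table and 0.82 over the 801 that were higher.

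H2-Eb1 encodes the beta chain of the class II E molecule. The gene of the alpha chain, H2-Ea, had no named probe, so the values concern RNA of the beta chain and not the E molecule. The deposited log2 levels of H2-Eb1 in chow replicates 1 to 4 were 11.92, 11.96, 12.30 and 12.03. In HFD replicates 1 to 3 they were 14.61, 13.93 and 13.10. The lowest HFD value lay 0.80 above the highest chow value, and the HFD values were spread much more widely than the chow values. Mean levels were 12.05 ± 0.17 (SD, n = 4) under chow and 13.88 ± 0.76 (SD, n = 3) under HFD. The log2 fold change in limma was 1.83 ± 0.33 (SE) at an adjusted p of 0.0484. This fit takes the same variance for both groups. In the 4 listed class II genes the SDs were 0.13 to 0.17 in chow and 0.62 to 0.76 in the smaller HFD group. Their SEs and p-values may therefore be too small, and a fit with separate variances was not run.

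H2-Ab1 encodes the beta chain of the A molecule, and its 2 probes gave nearly the same values. On the brighter probe the deposited log2 levels were 11.84, 12.02, 12.21 and 12.02 in chow and 14.44, 13.74 and 12.94 in HFD. As for H2-Eb1, chow replicate 3 was the highest chow sample, HFD replicate 1 the highest of all and HFD replicate 3 the lowest HFD sample. The difference was 3.21-fold (log2 1.68 ± 0.32 SE), at an adjusted p of 0.0537 in limma, and the other probe gave 1.73 on the log2 scale.

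Cd74, the invariant chain, also guides class II molecules to endosomes. Its deposited log2 levels were 11.07, 11.16, 11.47 and 11.23 in chow and 13.44, 12.80 and 12.09 in HFD. The samples fell in the same order within each group as for H2-Eb1. The difference was 2.92-fold (log2 1.54 ± 0.30 SE), at an adjusted p of 0.0543 in limma.

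H2-DMb1 encodes the beta chain of the peptide exchange factor DM. It had deposited log2 levels of 9.13, 9.39, 9.28 and 9.12 in chow and 11.15, 10.58 and 9.91 in HFD. Its HFD samples kept the order of the other class II genes, while its highest chow sample was replicate 2. Fitted with limma, it was 1.32 ± 0.27 (SE) higher on the log2 scale, at an adjusted p of 0.0632.

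Psmb9 encodes the immunoproteasome subunit that takes the place of Psmb6. Its deposited log2 levels were 11.88, 12.23, 11.88 and 11.91 in chow and 13.16, 12.75 and 12.77 in HFD. Here HFD replicates 2 and 3 were nearly equal, and 1 chow sample, replicate 2, stood above the other 3. The rise of 0.92 ± 0.15 (SE) on the log2 scale had an adjusted p of 0.0388 in limma.

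**Figure D1:**
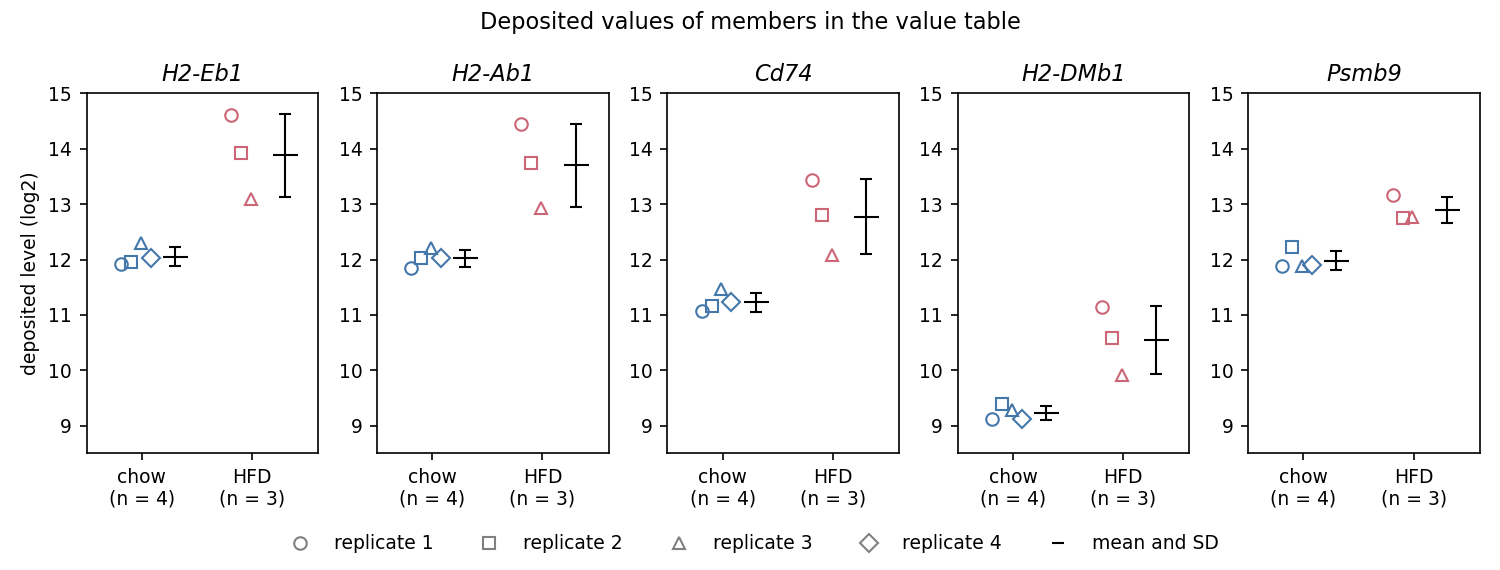
Deposited log2 level (vertical axis) of the 5 listed members in each chow (blue, n = 4) and HFD (red, n = 3) sample, with marker shapes for replicate numbers and bars for the mean and SD. In the 4 class II genes the HFD replicates are spread over 1.24 to 1.51 log2 units with replicate 1 highest and replicate 3 lowest, and those of Psmb9 over 0.41.

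**Figure D2:**
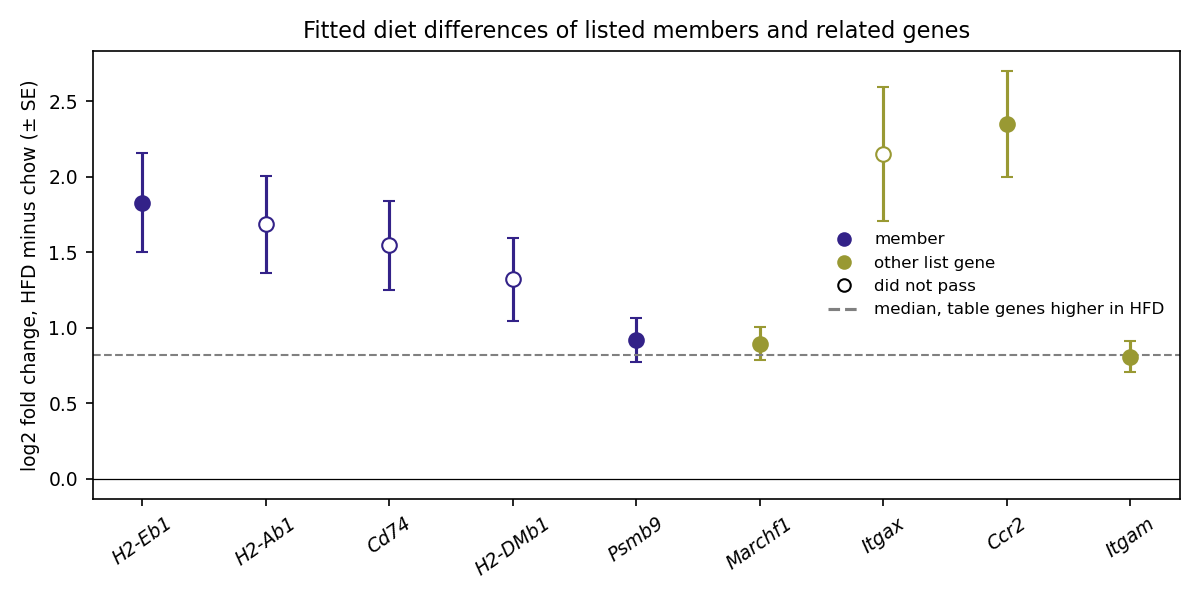
Fitted log2 fold change of HFD against chow (vertical axis, with SE) for the 5 listed members (dark blue) and 4 related genes of the table (olive), with filled symbols for genes that passed at an adjusted p under 0.05. H2-Eb1, H2-Ab1, Cd74 and H2-DMb1 lie between 1.32 and 1.83 and Psmb9 at 0.92, and the dashed line marks the median of 0.82 over table genes that were higher in HFD.

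The calls changed when samples were left out. With chow replicate 1, 2, 3 or 4 or HFD replicate 1 or 2 left out, 0 of the 5 members passed in limma. At an unadjusted p under 0.05 all 5 did in each of these fits, as did all 1488 genes of the table, which was chosen on this contrast with those samples included. Without HFD replicate 3, the 4 class II genes passed and Psmb9 did not (adjusted p = 0.0678). Without HFD replicate 1, the array with the higher negative control signal, the log2 fold change was 1.46 for H2-Eb1, 1.32 for H2-Ab1, 1.21 for Cd74, 1.02 for H2-DMb1 and 0.79 for Psmb9. With each column of the table centred on its median, limma still called H2-Eb1 (adjusted p = 0.0424) and no longer Psmb9 (adjusted p = 0.0517). With 4 samples against 3, an exact permutation test (two-sided) of 1 gene cannot go below p = 0.0571.

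The listed class II genes varied among HFD samples more than most of the table. The highest and lowest HFD samples were 1.51 log2 units apart for H2-Eb1, about as far for H2-Ab1, 1.35 for Cd74 and 1.24 for H2-DMb1, beside a median of 0.37 over all genes of the table. Between 94.4% and 96.4% of table genes had a smaller HFD range than these 4 genes. In chow their ranges were 0.27 to 0.40, near the median of 0.36 over the table. Psmb9 had a range of 0.41 in HFD and 0.35 in chow, so its HFD samples were about as close to each other as those of the middle gene of the table.

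Across the 7 samples, H2-Eb1 was set against every other gene of the table by the Euclidean distance between log2 values centred on each gene's mean. Of 1487 genes, the nearest was H2-Ab1 (distance 0.22) and the next was Cd74 (0.39), while the median distance was 2.17. The next nearest were the collagen gene Col3a1 (0.43), the kinase gene Limk1 (0.44) and Epdr1 (0.48). H2-DMb1 ranked 22 (0.77) and Psmb9 ranked 250 (1.53). These genes share libraries and a selection for the diet contrast, so nearness is a description of these 7 arrays.

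The diet difference of H2-Eb1 was set against that of Psmb9 sample by sample. With both genes centred on their means, H2-Eb1 minus Psmb9 was -0.43, -0.74, -0.05 and -0.35 in chow and 0.98, 0.71 and -0.14 in HFD on the log2 scale. HFD replicate 3 lay among the chow samples on this measure. The mean difference was 0.91 (p = 0.114 in an exact permutation test, two-sided). With 4 samples against 3 that test cannot go below 0.0571, so it does not settle whether the fold changes of H2-Eb1 and Psmb9 differ.

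The remaining 5 members, H2-Aa, H2-DMa, Ciita, Psmb8 and Tap1, were not listed in the table, and nothing can be said of their diet difference. All 10 members were well above background on all 3 HFD arrays, beside 68% of named genes that were so on at least 2. The scanner levels below are log2 processed signals relative to the upper quartile of their array, in the order of HFD replicates 1, 2 and 3. Levels of different probes are not compared, since each probe has its own response.

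H2-Aa, the alpha chain that joins the H2-Ab1 product, had scanner log2 levels of 1.66, 0.86 and 0.03. H2-DMa, the alpha chain of DM, had -0.77, -1.81 and -2.29. Ciita, which does not bind DNA itself but is recruited to class II promoters and switches them on, had -3.94, -4.78 and -5.14. In each of these 3 genes replicate 1 was the highest and replicate 3 the lowest, as in the 4 listed class II genes. Their HFD ranges of 1.63, 1.51 and 1.20 exceeded those of 96.4%, 95.6% and 92.2% of 19496 genes measured above background on at least 2 HFD arrays, whose median range was 0.36. With normexp background correction the range of Ciita, a dim probe, was 0.29.

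Psmb8, the subunit that replaces Psmb5, had scanner log2 levels of 2.59, 2.22 and 2.22 in HFD replicates 1 to 3. Tap1, an ATP-driven subunit of the TAP transporter, had -0.65, -1.39 and -1.07. In both, replicate 1 was the highest and replicate 3 was not the lowest, and in Psmb8 replicates 2 and 3 were nearly equal. Their ranges were 0.38 and 0.74, beside 0.36 for Psmb9 on the same scale.

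The 6 class II genes, and Ciita on a dim probe, thus had one order of HFD samples, with replicate 1 highest and replicate 3 lowest. The 3 members of the immunoproteasome and TAP did not have that order. Outside the members it was held by 2 of 4 other genes of the immunoproteasome and its activators. Psmb10 held it (4.50, 4.34 and 4.27) and Psme2 did not (4.67, 4.58 and 4.60). Of 13 class I presentation genes 5 held it, among them Tap2 (2.91, 2.65 and 2.49). That order was held by 17.9% of 19487 such genes on the scanner scale, by 25.6% of all genes in the table and by 42.3% of table genes higher in HFD. The 6 class II genes without Ciita held it under the upper quartile, median and quantile scalings and under normexp. Ciita lay near background, with a range of 0.29 under normexp, and the array of replicate 1 had the highest negative control signal. The median HFD range of the 7 genes was 1.31 log2 units, between 1.20 and 1.63, and that of the 3 others was 0.38.

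**Figure D3:**
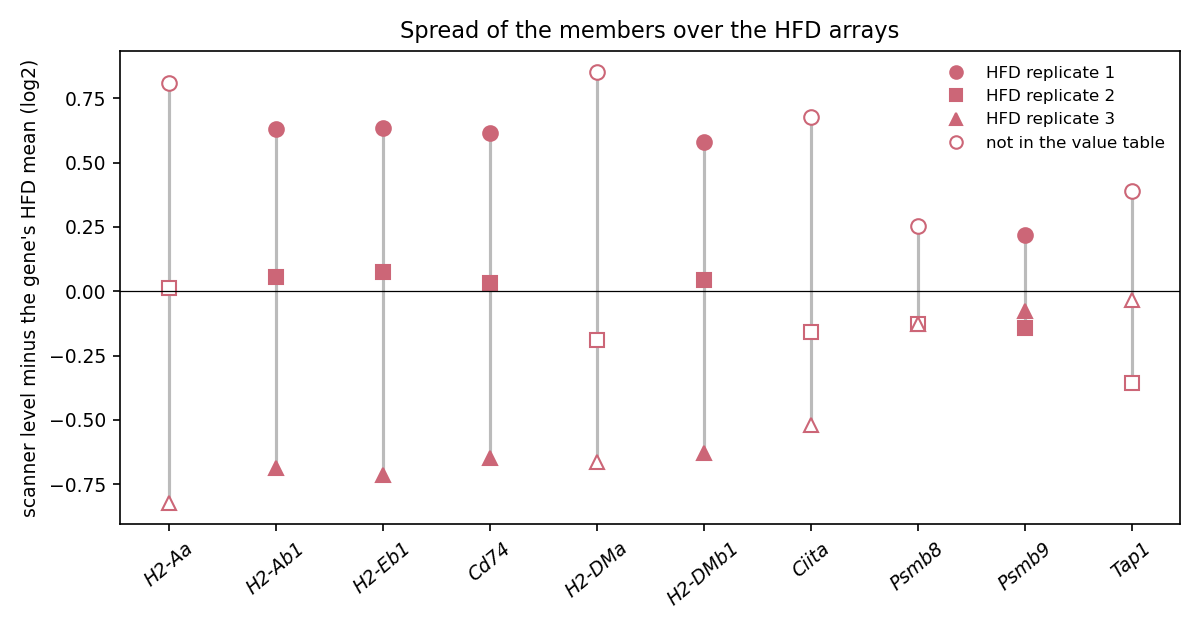
Scanner log2 level of each member on the 3 HFD arrays, minus the gene's own HFD mean (vertical axis), with circles, squares and triangles for replicates 1, 2 and 3 and open symbols for members outside the value table. The 7 class II genes at the left, with Ciita on a dim probe, run from replicate 1 at the top to replicate 3 at the bottom. Psmb8, Psmb9 and Tap1 have smaller ranges of 0.36 to 0.74 with replicate 1 at the top.

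Promoters of the members are shown because the class II genes varied together. Class II promoters are known for an X box, bound by the RFX complex, that stands at a set distance from a Y box bound by NF-Y, the platform on which CIITA acts. The RefSeq promoter table (GRCm38.p6, 250 bases before to 50 after each start) matched 7 of the 10 members, and H2-Ab1, Cd74 and Ciita were not matched. H2-Eb1 (chr17:34305766-34305822, plus strand), H2-DMb1 (chr17:34153087-34153144, plus strand) and H2-Aa (chr17:34287857-34287914, minus strand) are printed 5′ to 3′ with the letters GNAACT, taken for the core of the X box, and ATTGG, the core of the Y box, in capitals.
H2-Eb1: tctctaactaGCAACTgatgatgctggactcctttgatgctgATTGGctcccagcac
H2-DMb1: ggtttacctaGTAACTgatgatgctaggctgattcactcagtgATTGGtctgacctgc
H2-Aa: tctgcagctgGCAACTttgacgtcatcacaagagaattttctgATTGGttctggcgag

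The 2 matches were separated by 26 bases in H2-Eb1 and by 27 in H2-DMb1 and in H2-Aa, and the ATTGG match began 59, 61 and 48 bases before the start. Searched on both strands with a spacing of 26 to 27 bases, this arrangement was found in 34 of 32851 RefSeq promoter windows (0.103%). The letters and the spacing were set after these promoters had been read, so the share only describes how common the arrangement is. Alone, GNAACT was found in 42.8% and ATTGG in 37.4% of windows. Outside the members, the antigen presentation and marker lists held matches for the class II gene H2-Eb2, not well above background on any HFD array, and for the Kupffer cell marker Clec4f. H2-DMa, with 2 windows, did not hold the arrangement.

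Psmb9 and Tap1 lie head to head, and their promoter windows share 275 bases, so the Psmb9 window (chr17:34187281-34187580, minus strand) is printed for both. Capitals mark ATTGG. The window also holds GNAACT on the other strand.
Psmb9: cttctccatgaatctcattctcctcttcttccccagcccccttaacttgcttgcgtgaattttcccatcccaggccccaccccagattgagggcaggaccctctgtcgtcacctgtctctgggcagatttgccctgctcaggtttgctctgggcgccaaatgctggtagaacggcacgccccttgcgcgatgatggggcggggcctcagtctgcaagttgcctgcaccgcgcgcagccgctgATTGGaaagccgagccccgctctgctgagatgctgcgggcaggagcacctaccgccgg

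A match in letters is not a site in use, and a missing match says only that these letters are not in the window. Psmb9 was listed and Tap1 was not, although they share this region.

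In the RefSeq gene order, 11 protein-coding genes run from H2-DMa to H2-Eb1, and 8 of them are members. All 11 had a probe and 4 were in the table, H2-DMb1, Psmb9, H2-Ab1 and H2-Eb1, which do not lie next to each other except for H2-DMb1 and Psmb9. Tap1, Psmb8, Tap2 and H2-Ob, between Psmb9 and H2-Ab1, were not listed, and each was well above background on all 3 HFD arrays.

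Of 15 further genes of the class II pathway, 14 had a named probe, 11 were well above background on 2 or 3 of the HFD arrays, and 1 was in the table. This was Marchf1, which encodes a ubiquitin ligase that marks class II molecules for removal from the surface. Its deposited log2 levels were 9.43, 9.31, 9.29 and 9.38 in chow and 10.39, 10.29 and 10.06 in HFD. It rose 1.86-fold (log2 0.90 ± 0.11 SE), at an adjusted p of 0.0255 in limma, on 1 of its 2 probes, the other being outside the table. The protease gene Ctss, which cuts the invariant chain, was not listed and had scanner log2 levels of 3.68, 2.97 and 2.50 in HFD replicates 1 to 3. Ifi30, a thiol reductase of endosomes, had 1.32, 0.27 and 0.06. In 7 of these 11 genes replicate 1 was highest and replicate 3 lowest. Replicate 3 was the highest in 3 of them: H2-Ob (-3.10, -3.84 and -2.35), Rfxap (-3.03, -3.11 and -2.65) and Rfxank (0.25, 0.32 and 0.33).

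None of 13 class I presentation genes, 4 measured genes of the immunoproteasome and its activators, 3 constitutive catalytic subunits or 11 other subunits of the proteasome core was listed in the table. The table holds only 1488 of the 32451 genes on the array, so nothing can be said of the diet difference of unlisted genes. In class I presentation the HFD samples were close, with a median range of 0.30 log2 units. The class I heavy chain gene H2-K1 had scanner log2 levels of 7.33, 7.44 and 7.31, and its light chain B2m had 6.88, 6.92 and 6.94. Of the constitutive subunits, Psmb5 had 6.16, 6.30 and 6.29 and Psmb6 had 5.51, 5.70 and 5.70. Replicate 1 was the lowest HFD sample for both, over small ranges of 0.15 and 0.19. It was the highest for Psmb8 and Psmb9, the subunits that replace them. A low replicate 1 was not particular to Psmb5 and Psmb6. The 11 other core subunits had median deviations from the gene's HFD mean of -0.11, -0.05 and 0.15 in replicates 1, 2 and 3. Of these 11 subunits 8 were highest in replicate 3, with ranges of 0.14 to 0.40.

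None of 22 genes of the interferon gamma pathway and its targets was listed either, so their diet difference is likewise unknown. Of the 22, 20 were well above background on 2 or 3 of the HFD arrays. In 18 of these 20 replicate 1 was the highest HFD sample, and in 9 replicate 3 was the lowest. The share of all genes highest in replicate 1 was not counted, so the 18 cannot be read as a trait of this list. Irf1, an interferon-induced transcription factor, had scanner log2 levels of 3.21, 2.90 and 2.97, and the GTPase gene Iigp1 had 2.68, 2.66 and 3.19. Across the 20 genes the median deviation from the gene's HFD mean was 0.38 in replicate 1, -0.23 in replicate 2 and -0.16 in replicate 3.

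Markers of cells that carry class II moved with the diet in part, and in bulk liver more cells of a type and more RNA per cell cannot be told apart. Of 7 dendritic cell markers 2 were in the table, both higher in HFD and neither past the threshold. Itgax, which encodes CD11c of dendritic cells and some macrophages, had deposited log2 levels of 7.28, 6.73, 7.02 and 6.67 in chow and 10.04, 9.18 and 8.01 in HFD, a difference of 2.15 ± 0.44 (SE) at an adjusted p of 0.0634 in limma. Cd209a, a lectin gene, had all 4 chow values and HFD replicate 3 (4.31) below the highest detection floor of the HFD arrays (4.93). Taking that floor for chow, its HFD mean was at least 1.16-fold higher (adjusted p = 0.0634 in limma). This rests on a single probe of its 2, the other being outside the table. The summed linear level of both, mostly from the Itgax probe, ranged from 109 to 165 in chow and from 277 to 1103 in HFD. Among the other dendritic cell markers Xcr1 was not well above background on any HFD array.

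Of 6 measured markers of monocyte-derived macrophages 3 were in the table and rose. In limma, Itgam, which encodes CD11b, rose 1.75-fold (adjusted p = 0.0261) on a single probe of its 3, the others being outside the table. The chemokine receptor gene Ccr2 rose by a fitted 5.09-fold (adjusted p = 0.0330 in limma), with a single chow sample under the floor. Gpnmb was at least 5.86-fold higher (adjusted p = 0.0257 in limma), with all 4 chow samples under it. The summed linear level of the 3 genes, nearly all of it from the Itgam probe, ranged from 2632 to 2726 in chow and from 4372 to 5950 in HFD. No marker of Kupffer cells (6 measured), B cells (5), T and NK cells (6), sinusoidal endothelial cells (4), stellate cells (4) or cholangiocytes (3) was in the table. The diet difference of these markers is therefore unknown. Of these, Pax5 of B cells and Cd8a and Klrb1c of T and NK cells were not well above background on any HFD array. The hepatocyte marker Cps1 was listed as lower, by -1.36 on the log2 scale (adjusted p = 0.0529 in limma), at a linear level of 19756 to 30362 in chow and 6517 to 12503 in HFD.

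On the HFD arrays the order of samples in the class II genes was also that of 5 of 6 dendritic cell markers and of 5 of 6 markers of monocyte-derived macrophages that were well above background. It was held by 1 of 6 Kupffer cell markers and by 0 of 4 B cell markers. Of these, 6 and 3 were highest in replicate 1, a share not counted over all genes. Markers of cells not named above for class II held it in part too: 2 of 3 for cholangiocytes, 2 of 4 for stellate cells, 2 of 4 for T and NK cells, 1 of 4 for sinusoidal endothelial cells and 0 of 4 for hepatocytes. The median deviations in replicates 1, 2 and 3 were 0.64, 0.03 and -0.66 for the 7 class II genes, 0.53, 0.15 and -0.47 for dendritic cell markers and 0.59, 0.30 and -0.92 for monocyte-derived macrophage markers. For Kupffer cell markers they were 0.78, -0.42 and -0.23, for B cell markers 0.55, -0.50 and -0.07, and for the 3 immunoproteasome and TAP genes 0.25, -0.14 and -0.07. Cholangiocyte markers had 0.43, 0.13 and -0.39, near the values of dendritic cell markers. Hepatocyte markers had -0.38, 0.22 and 0.13, so replicate 1 was low in these. The part of these cell types, of RNA content and of the array of replicate 1 in the members' values was not tested.

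**Figure D4:**
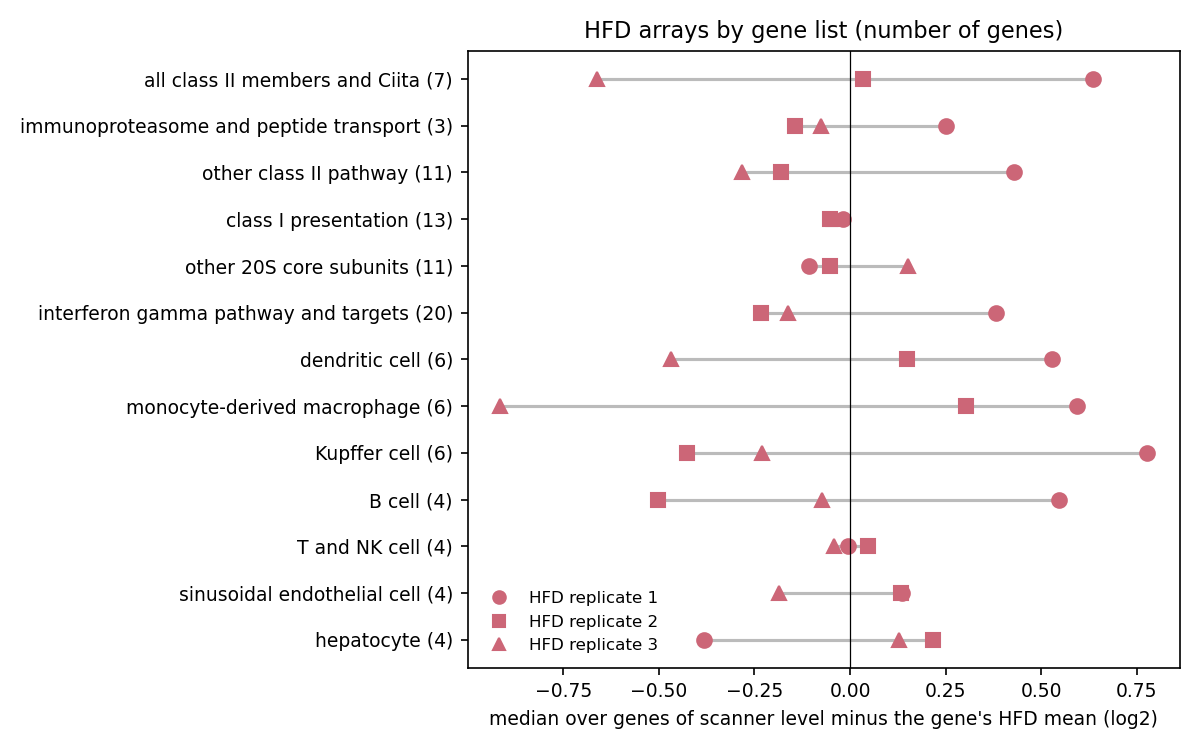
Median over the genes of each list of the scanner log2 level minus the gene's own HFD mean (horizontal axis) on the 3 HFD arrays, with the number of genes in brackets. Class II genes, dendritic cell markers and monocyte-derived macrophage markers run from replicate 1 on the right to replicate 3 on the left, while the immunoproteasome, Kupffer cell and B cell lists have replicate 2 farthest left.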

How the data were processed

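Labelled liver RNA of each sample was hybridised to its own Agilent array. The deposited scanner files hold spot intensity values (background-subtracted processed signals, median signals and flags, per the file headers) from Feature Extraction 10.7.3.1, per the file headers, or 9.1, per the submitters' processing notes. A second deposited file is the authors' table of log2 values. Its HFD columns follow the scanner signals and its chow columns could not be checked against theirs. How probes were chosen and normalized for it is not given in the sources used here.

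Of 39429 probes, 27234 were named through RefSeq accessions (GRCm38.p6, names only, since the array design uses mm9). Control and outlier spots were left out, spots were averaged on the log2 scale, and the probe with the highest mean stood for a gene. In limma 3.58.1 (R 4.3.3), variances were moderated toward a prior (variance 0.0354, 2.10 degrees of freedom) from 19494 genes on the HFD arrays, and genes outside the table received a p of 1. In all, 342 genes were higher and 270 lower. The fit was tested on simulated data. The number of arrays limits precision.

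The members, lists and tests were chosen with earlier results of these data known. Named genes were all members, every list gene in the table and the 5 genes nearest to H2-Eb1. The plan also named the 2 highest genes of each list without a gene in the table. These are given for class I presentation, the immunoproteasome and its activators, constitutive subunits and the interferon gamma list. They are left out for the other core subunits and for cell types. Ctss, Ifi30, H2-Eb2, H2-Ob, Rfxap, Rfxank, Tap2 and genes not above background were named after their values were seen. Alternatives were the prior, the adjustment, the probe rule, the centring, a replicate block, each sample left out and 3 other scanner normalizations. Other promoter motifs searched are not reported here.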

Additional observations from a re-analysis of the deposited data

Results flagged for a closer look

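The chow values of Psmb9 held 1 sample far from the rest: replicate 2, at 12.23, stood apart from the other 3 by 0.914 of the group's range, above Dixon's critical value for 4 samples. Gpnmb, a macrophage marker, was likewise marked by chow replicate 3 (0.873 of the range), at values below the detection floor. Chance marks about 1 in 20 groups, and 4.84% of all table genes were marked in this way. In the 4 scanner files labelled chow, which enter no comparison, 8 of the 10 members were well above background on all 4 arrays, and H2-Aa and Ciita on none.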

How the results depend on the processing

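All 5 listed members stayed higher in HFD under every alternative run. That direction was nearly fixed in advance, since the table holds only genes whose chow and HFD values do not overlap, so it is no support. The count of members that passed, 2 with all samples, was 5 with the prior of the table genes, 5 with adjustment over the table genes alone (which called all 1488), 2 with the mean over a gene's probes and 1 with columns minus their median. With 1 sample left out it ran from 0 to 4, and it was 4 without HFD replicate 3 alone. Centring the columns lowered all log2 fold changes by 0.21 and gave 185 higher and 605 lower genes (23.4% higher) in place of 342 and 270 (55.9% higher), and the prior of the table genes gave 552 and 474. With 1 sample left out, between 0 and 243 genes were called higher and between 0 and 210 lower, 0 of both without chow replicate 1 or HFD replicate 1. The replicate block gave 0 members, with adjusted p-values in limma from 0.323 to 0.396, and 0 genes in all, while at an unadjusted p under 0.05 all 5 members and all 1488 table genes passed. Same-numbered samples deviated together with correlations of -0.10, 0.14 and 0.03, beside -0.16 to 0.14 for samples of different number. The labels do not say that a number marks a pair, and these correlations over genes chosen on the diet contrast cannot exclude pairing. With no replicate left out, the median log2 fold change lay between 1.33 and 1.54, and with 1 left out between 1.21 and 1.89. The count of 10 members well above background was the same at 1 or 3 arrays and for any probe. Ranges of the members over the HFD arrays moved by less than the SD between replicates under each scaling, except for Ciita under normexp, where the cause was not tested. Signals near background, as for Ciita, limit what its values show.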

Other observations

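Outside the lists, the value table held 3 more genes with a symbol of the H2 or Psm families, found by a search of symbols after the data were seen. H2-Q1, a class I-like gene, had deposited log2 levels of 8.75, 8.75, 9.22 and 9.03 in chow and 12.31, 11.40 and 10.68 in HFD, a rise of 2.53 ± 0.36 (SE) at an adjusted p of 0.0303 in limma. Its HFD samples stood in the same order as those of the class II genes. H2-Q10, a secreted class I-like gene of liver, was 0.41 higher on the log2 scale, at an adjusted p of 0.105 in limma. Genes of the H2-Q group are close copies of each other, and the probes' sequences were not used here, so both values are uncertain. Psme3, which encodes a proteasome activator of the nucleus, had means of 12.13 ± 0.13 (SD, n = 4) under chow and 11.04 ± 0.34 (SD, n = 3) under HFD. It fell by 1.09 ± 0.17 (SE) on the log2 scale, at an adjusted p of 0.0374 in limma.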
